A study of Mus musculus with 2 samples.

Results

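Fibroblast-like mesenchyme of the Isl1-Cre lineage was examined in mouse embryos at E13.5. These cells were chosen by measured UMIs (unique molecular identifiers, each marking 1 captured transcript): 747 of 6272 filtered cells belonged to the group, 411 of 2783 in the control library and 336 of 3489 in the mutant library. A member had at least 1 UMI in 3 or more of the 7 genes Prrx1, Twist1, Pdgfra, Lum, Col6a3, Osr1 and Twist2. It also had fewer than 3 Col2a1 UMIs, fewer than 3 of 6 lung and foregut genes (Tbx4, Wnt2, Tcf21, Adh1, Hoxb5, Tbx2) and fewer than 2 of 6 genes of other cell types (Cdh5, Pecam1, Epcam, Ptprc, Pax7, Myog). Cells had passed a filter on detected genes (above 2000, below 9000) and on mitochondrial UMIs (under 10%).

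The study made these libraries to ask how an activating Pik3ca mutation, expressed in cardiopharyngeal mesoderm, affects endothelial cells and vascular malformations. Control embryos were Isl1-Cre;R26R-eYFP and mutant embryos were Isl1-Cre;R26R-eYFP;Pik3caH1047R, both on a mixed C57BL/6J and ICR background, and cells carrying eYFP were sorted from the upper body, down to the liver, which the labels call pharyngeal arch. Cre was under the control of Isl1 in both genotypes, and the control differed by the absence of the Pik3caH1047R allele. The sort was by eYFP and not by cell type. Whether it held every Isl1-lineage cell type of that tissue was not tested. Each genotype was 1 library made from 3 pooled embryos. The values therefore have no replicate, no test between genotypes was possible, and every interval given is a 95% interval for counting error only.

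Mesenchymal fibroblasts make the interstitial matrix of collagens, proteoglycans and elastic fibres on which organs of the head, neck and thorax are built, and transcription factors such as Prrx1 and Twist1 mark their embryonic precursors. The receptor Pdgfra carries the PDGF signals these precursors depend on. PI3K, whose catalytic subunit p110 alpha is encoded by Pik3ca, acts below receptor tyrosine kinases and can raise the hypoxia-inducible factor HIF-1, which switches on glucose transporters, glycolytic enzymes and genes of low oxygen.

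In the mutant library the fibroblast-like cells had higher levels of HIF targets and glycolytic enzymes and lower levels of collagen I, III and VI chains and of the small proteoglycans Dcn and Ogn. Bnip3, a HIF target that acts in mitophagy, was at 35.7 CPM (counts per 1000000 UMIs summed over the members of a library) in control and 334 CPM in mutant members. Dcn, which encodes the collagen-binding proteoglycan decorin, was at 954 CPM in control and 151 CPM in mutant members. Dcn was at 125 and 21.7 CPM and Bnip3 at 44.4 and 266 CPM in all other filtered cells, and the medians of the HIF and collagen lists had the same sign there. The make-up of these other cells differed between the libraries, with lung and foregut mesenchyme at 17.1% of control and 2.44% of mutant filtered cells and endothelial cells at 5.93% and 20.3%, so that in their pooled values a change in level and a change in make-up cannot be told apart.

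Bnip3 and Ddit4 had the largest ratios among HIF targets and glycolytic enzymes with at least 100 CPM in 1 library and with a RefSeq promoter entry holding the core of the hypoxia response element, ACGTG on either strand. The stretches run from 250 to 91 bases before the start that RefSeq gives each gene and are shown so that the core, in capitals, can be seen beside the values. They lie on the minus strand of GRCm38.p6, at chr7:138909597-138909756 for Bnip3 and chr10:59951861-59952020 for Ddit4. Both are upstream of the gene and are given 5′ to 3′ on the gene's strand.
Bnip3: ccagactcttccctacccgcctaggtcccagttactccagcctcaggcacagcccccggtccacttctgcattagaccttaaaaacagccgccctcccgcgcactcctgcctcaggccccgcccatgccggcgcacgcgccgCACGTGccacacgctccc
Ddit4: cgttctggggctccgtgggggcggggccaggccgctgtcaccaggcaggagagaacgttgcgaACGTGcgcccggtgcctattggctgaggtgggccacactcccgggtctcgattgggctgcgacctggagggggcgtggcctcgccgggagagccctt
The Bnip3 match is the palindrome CACGTG, which reads as the core on both strands. Over 32851 RefSeq promoters of 300 bases, 19.6% held the core on either strand. The gene models, whose GENCODE starts lie a little upstream of those of RefSeq, span chr7:138890836-138909519 (Bnip3) and chr10:59949669-59951834 (Ddit4) and are protein-coding. Of the 59 genes on the HIF and glycolysis lists, 52 had an entry, and 36 of their 76 promoters (47.4%) held it. Slc2a3, Ndrg1 and Ero1l had no entry. A match describes the letters and is not a bound site.

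The members held 8021031 UMIs in control and 6017001 UMIs in mutant, with medians of 16650 and 15679.5 UMIs per cell. Median gene numbers were 5116 and 4789.5, and median mitochondrial shares were 1.45% and 1.42%. Of the filtered cells, 14.8% (13.47 to 16.1, exact binomial) were members in control and 9.63% (8.67 to 10.7) in mutant. This share depends on the marker genes themselves, 3 of which were lower in mutant members. Among the members, 10.5% of control and 31.3% of mutant cells had just 3 of the markers, while 21.4% and 4.17% had all 7. Just outside the rule were 68 control and 145 mutant cells with 2 markers. A further 22 control and 33 mutant cells missed it with 3 or 4 Col2a1 UMIs, against 28 and 33 members with 2 UMIs. At the lung limit, 64 control and 21 mutant cells had 3 of the lung genes, against 96 and 62 members with 2. Of the members, 124 control and 117 mutant cells had 1 gene of another cell type.

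The 7 marker genes chose the cells, so their levels are a description. Twist1, a transcription factor of mesenchymal precursors, was at 239 CPM in control and 259 CPM in mutant members. Pdgfra was at 211 and 202 CPM, and Prrx1 was at 322 and 277 CPM. These 3 markers were thus close in both libraries. Lum, which encodes the proteoglycan lumican, was at 498 and 197 CPM, and Col6a3, a collagen VI chain, was at 266 and 57.7 CPM. Osr1, a transcription factor of connective tissue precursors, was at 280 and 174 CPM, and Twist2 was at 98.2 and 51.5 CPM. Detection in members ran from 52.1% (Twist2) to 85.9% (Prrx1) of control cells and from 42.9% (Col6a3) to 83.9% (Pdgfra) of mutant cells. With every cell thinned to 5000 UMIs, Prrx1 was detected in 64.7% of control and 61.4% of mutant members, against 3.09% and 3.06% of endothelial cells, which should lack it and had median depths of 20915 and 18020 UMIs.

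**Figure D1:**
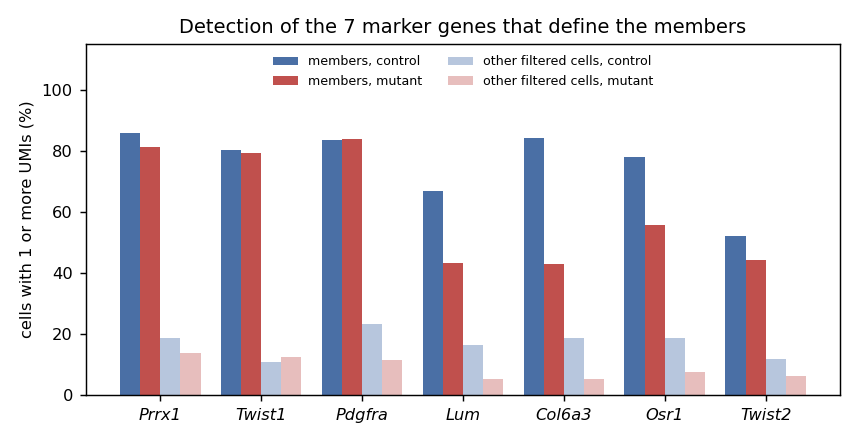
Percent of cells with at least 1 UMI of each of the 7 marker genes, by library, in members (dark bars) and all other filtered cells (light bars). Prrx1, Twist1 and Pdgfra were detected in close shares of control and mutant members, while Lum was detected in 66.7% and 43.2% and Col6a3 in 84.2% and 42.9%.

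Against all other filtered cells, beyond the markers, the leading genes were Dkk2 and Sfrp2, which modulate WNT signals, the ligand Wnt5a, the chemokine Cxcl12, and the matrix genes Dcn, Col1a1, Col6a1, Postn, Col3a1 and Col12a1. Col1a1, a chain of collagen I, was 2.63 higher on the log2 scale in control members than in other control cells and 2.92 higher in mutant members than in other mutant cells. For Wnt5a the differences were 2.81 and 2.80. Over the 30 fibroblast genes outside the rule, the median difference from the other cells was 2.05 in control and 1.61 in mutant, and over the dermal and adipose precursor genes it was 2.07 and 0.63. Because the rule chose the cells from their counts, these differences carry no test.

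The label of the group names pharyngeal and cranial mesenchyme, and the members held more than that. Patterning factors of the arches and face such as Msx1, Alx1 and Gsc were present, but so was Hoxa10, a factor of posterior body regions and limbs, at 42.5 CPM in control and 35.2 CPM in mutant members. A graph-based clustering of the 747 cells gave 6 subclusters (4 at a lower and 10 at a higher resolution). Subcluster 1, of 251 cells, was led by Hoxa10, Msx1, Wif1, Mab21l2 and Cxcl14 and had 8 patterning factors raised, among them Alx1, Alx4, Tbx15 and Shox2. Hoxa10 was detected in 33.1% of its cells against 5.24% of the other members. Subcluster 2, of 173 cells, was led by Actg2, Tbx20, Flt1, Cnn1 and Tagln, and 3 of 12 mural genes (Tagln, Cnn1, Mcam) and 4 of 15 cartilage genes (Sox6, Col9a1, Col9a3, Hapln1) were raised in it. Subcluster 3, of 128 cells, was led by Msc, Moxd1, Kcne1l, Ttn and Tnnt1, with Scx, a tendon factor, Six2, Tbx1 and the FGF feedback genes Spry1, Spry2, Spry4 and Dusp6 also raised.

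Subcluster 4, of 99 cells, was led by Dpt, Clec3b, Nefm, Mfap5 and Nefl, and 6 of 30 fibroblast genes (Dcn, Dpt, Ogn, Mfap5, Col14a1, Col12a1) were raised in it. Its neurofilament UMIs came mostly from few cells: 3 control and 2 mutant members had more than 50 UMIs of the neuron markers. Subcluster 5, of 65 cells, was led by 1700018A04Rik, Fendrr, Foxf1, Foxf2 and Hand1 and had the hedgehog targets Gli1, Ptch1 and Hhip raised. Subcluster 6, of 31 cells, was led by Upk3b, Lrrn4, Krt7, Pkhd1l1 and Muc16. All 7 mesothelial markers were raised in it, and it is called mesothelium-like. Its median depth was 37526 UMIs, the highest of the 6. These genes define the subclusters and are not results, and the cells are called fibroblast-like mesenchyme without a place in what follows.

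Pik3ca itself was at 29.9 CPM in control and 44.2 CPM in mutant members (log2 ratio 0.56, 0.31 to 0.82), and at 35.5 and 36.0 CPM in the other filtered cells. The direction was not stable: with cells thinned to 5000 UMIs before the rule the log2 ratio of Pik3ca was -0.23. Whether transcripts of the introduced Pik3caH1047R allele were counted under this gene is not given in the sources used here. Isl1, whose regulatory sequence drives Cre, was at 17.95 and 21.3 CPM, within counting error (log2 ratio 0.24, -0.11 to 0.60).

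Of 14520 genes with at least 20 UMIs over both libraries, 531 (3.66%) were higher in mutant members with the counting interval beyond 1.5-fold and 750 (5.17%) were lower. The median log2 ratio of all 14520 genes was -0.01. In all other filtered cells the same limits gave 8.38% higher and 6.41% lower genes, over more UMIs. The words higher and lower below refer to these limits, unless values alone are given. Counts of called list genes in members stand beside 3.66% higher and 5.17% lower of all genes.

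Of 39 HIF targets, 29 were higher and none lower, with a median log2 ratio of 1.65. The share called among all genes was 3.66%, and the median of the same list in the other filtered cells was 1.29. Female-like cells alone gave 15 of 39 higher and a median of 0.82, against 330 of 13654 genes higher there. Among glucose and lactate carriers, the glucose transporter Slc2a3 was at 10.8 CPM in control and 101 CPM in mutant members, a log2 ratio of 3.22 (2.90 to 3.56). Slc2a1, the widely expressed glucose transporter, was at 54.5 and 280 CPM (2.36, 2.21 to 2.51). The lactate exporter Slc16a3 was at 38.9 and 187 CPM (2.27, 2.09 to 2.45). Between female-like cells the log2 ratios were 0.73 for Slc2a3, which was not called, 1.33 for Slc2a1 and 2.00 for Slc16a3.

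Among the other HIF targets, Bnip3 had a log2 ratio of 3.23 (3.05 to 3.41), and Ddit4, an inhibitor of mTORC1, went from 67.3 to 465 CPM (2.79, 2.65 to 2.92). Both carry the core printed above. Ndrg1, a stress gene, went from 18.7 to 114.5 CPM, and Ero1l, an oxidase of the endoplasmic reticulum, from 29.7 to 156 CPM. Between female-like cells alone, Ndrg1 went from 18.9 to 23.3 CPM (0.30, -0.26 to 0.83) and Ero1l from 30.04 to 51.6 CPM (0.78, 0.40 to 1.15), and neither was called. Higd1a, a mitochondrial protein, went from 129 to 505 CPM (1.97, 1.86 to 2.07). Bnip3, Ddit4 and Higd1a were called between female-like cells too, with smaller log2 ratios of 1.98, 1.99 and 1.08. Vegfa, which encodes the main growth factor of vessels, was at 69.2 CPM in control and 206 CPM in mutant members (1.58, 1.43 to 1.72), against 46.5 and 114 CPM in the other filtered cells. Between female-like cells its log2 ratio was 0.63, and it was not called. The list's most abundant gene was Mif, at 712 and 1929 CPM. Its largest ratio was that of Stc2 (3.54, from 2.74 to 31.9 CPM), and its lowest was that of Vldlr (-0.20, -0.49 to 0.09), which the counts could not tell from 0.

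Of 19 glycolytic enzymes with enough UMIs, 14 were higher and none lower. Their median log2 ratio was 1.19, against 1.05 in the other filtered cells. Female-like cells alone gave 10 of 19 higher and a median of 0.81. Hk2, a hexokinase of the first step, was at 18.2 CPM in control and 87.1 CPM in mutant members (2.26, 1.99 to 2.53). In the middle of the pathway, Aldoa was at 434 and 1399 CPM, Gapdh at 1076 and 2311 CPM and Pgk1 at 189 and 731 CPM (1.95, 1.87 to 2.04). At its end, Pkm was at 521 and 1370 CPM and the lactate dehydrogenase Ldha at 535 and 1618 CPM. Higher genes thus stood at every stage. Pfkm, the muscle isoform of phosphofructokinase, was at 31.9 and 31.1 CPM.

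**Figure D2:**
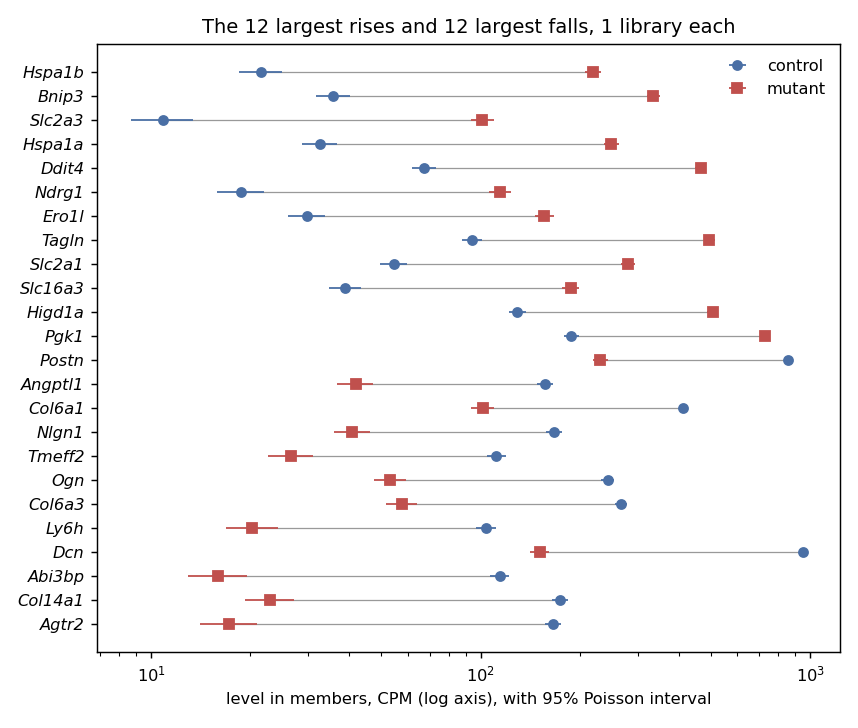
Levels in members (CPM, log axis) of the 12 genes with the highest and the 12 with the lowest mutant to control ratio, of those reaching 100 CPM in 1 library, with 95% Poisson intervals for counting error. Xist, Tsix and Y-linked genes were left out. The genes shown were chosen for these ratios, and Col6a3 also by the rule, so their separation is a description. Bnip3 goes from 35.7 to 334 CPM and Dcn from 954 to 151 CPM.

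Of 26 collagen chains, 13 were lower and none higher, with a median log2 ratio of -1.06, against 5.17% of all genes lower. Col1a1 was at 2701 CPM in control and 818 CPM in mutant members, a log2 ratio of -1.72 (-1.77 to -1.68). The other chain of collagen I, Col1a2, was at 1896 and 706 CPM (-1.42, -1.47 to -1.37), and Col3a1 was at 3000 and 1130 CPM. These 3 chains were thus at 0.303 to 0.377 of their control level. In collagen VI, which forms microfibrils near cells, Col6a1 was at 413 and 101 CPM and Col6a2 at 446 and 126 CPM. Col14a1, a fibril-associated chain, was at 174 and 22.9 CPM (-2.92, -3.19 to -2.67). The basement membrane chains Col4a1 and Col4a2 were not called, with log2 ratios of -0.07 and -0.20. In the other filtered cells the list median was -1.15, and Col1a1 was at 437 and 108 CPM.

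Collagen modifying enzymes went both ways: 3 of 24 were higher and 6 lower, with a median log2 ratio of -0.36. These were 12.5% and 25%, against 3.66% and 5.17% of all genes. The higher ones were P4ha1 and P4ha2, subunits of prolyl 4-hydroxylase, and Plod2, a lysyl hydroxylase. P4ha2 was at 37.9 and 145 CPM (1.94, 1.75 to 2.13). The list median was -0.37 in the other filtered cells. Between female-like cells none of the list was called higher, with log2 ratios of 0.52 for P4ha1, 0.90 for P4ha2 and 0.52 for Plod2. Lox, the oxidase that cross-links collagen and elastin, was lower, at 209 and 91.6 CPM (-1.19, -1.33 to -1.05). The collagen chaperone Serpinh1, the most abundant gene of the list, was at 1640 and 1128 CPM and did not reach the limit.

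Among 29 proteoglycan and elastic fibre genes, 12 were lower and 1 higher (median -0.63, also -0.63 in the other filtered cells). Dcn had a log2 ratio of -2.66 (-2.76 to -2.56). Ogn, a related small proteoglycan, was at 243 and 53.2 CPM, and Eln, which encodes elastin, at 304 and 112 CPM, although the log2 ratio of Eln was -0.42 between female-like cells and not called. The higher gene was Hapln1, which links proteoglycans to hyaluronan, at 6.61 and 34.9 CPM, with 181 of its 210 mutant UMIs in subcluster 2. Without subclusters 2, 3 and 6 Hapln1 changed sign (-1.65, -3.38 to -0.25) and was not called. Vcan, a large proteoglycan, was at 522 and 460 CPM and was not called. Of 30 fibroblast genes outside the rule, which share collagens and proteoglycans with these lists, 18 were lower and none higher (median -0.92, and -0.64 in the other filtered cells). Postn, a matricellular protein, was at 855 and 231 CPM (-1.89, -1.98 to -1.81), while Vim, the intermediate filament of mesenchyme, was at 1487 and 1447 CPM.

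Among other genes, Agtr2, which encodes an angiotensin receptor, had the lowest ratio among genes of at least 100 CPM, going from 166 to 17.3 CPM (-3.26, -3.56 to -2.97). Abi3bp, an extracellular matrix protein, went from 114 to 16.0 CPM, and Angptl1 from 156 to 41.7 CPM. Both Agtr2 and Abi3bp were highest in subcluster 4 (320 and 252 CPM, against 67.1 and 43.2 CPM in the other members), which held 18.98% of control and 6.25% of mutant members. Within subcluster 1 Agtr2 was at 122 and 17.1 CPM, and within subcluster 4 it was at 387 and 49.5 CPM. Nlgn1, a neuroligin, went from 167 to 40.7 CPM in members (-2.04, -2.24 to -1.84) and from 37.9 to 41.8 CPM in the other filtered cells. Ly6h went from 104 to 20.3 CPM in members (-2.36, -2.64 to -2.08) and was at 26.7 and 26.3 CPM elsewhere. For these last genes the other cells showed no such difference, but with 1 library per genotype the contrast between cell groups was not tested.

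Dermal and adipose precursor genes were lower in 7 of 14 and higher in 1, with a median log2 ratio of -0.86 in members and -0.01 in the other filtered cells, and -0.60 in lung and foregut mesenchyme. Subcluster 4, where Dpt was detected in 35.4% of cells against 4.01% elsewhere, held 18.98% of control and 6.25% of mutant members, and its part in these values was not tested. Dpt, which encodes the dermal matrix protein dermatopontin, had 259 UMIs in control and 0 in mutant members. With the 0 set to a floor of 3 UMIs, its log2 ratio was -6.02. Dlk1, an inhibitor of adipocyte differentiation, was at 4186 and 1183 CPM (-1.82, -1.86 to -1.79). Igf1, a growth factor that fibroblasts secrete, was at 509 and 180 CPM in members (-1.50, -1.60 to -1.40) and at 79.8 and 81.0 CPM elsewhere. Of 11 tendon and ligament genes 7 were lower (median -1.06, and -1.30 in the other filtered cells), among them Thbs4 at 93.1 and 20.4 CPM, while the tendon factor Scx was higher, at 20.6 and 74.5 CPM (1.86, 1.60 to 2.12).

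**Figure D3:**
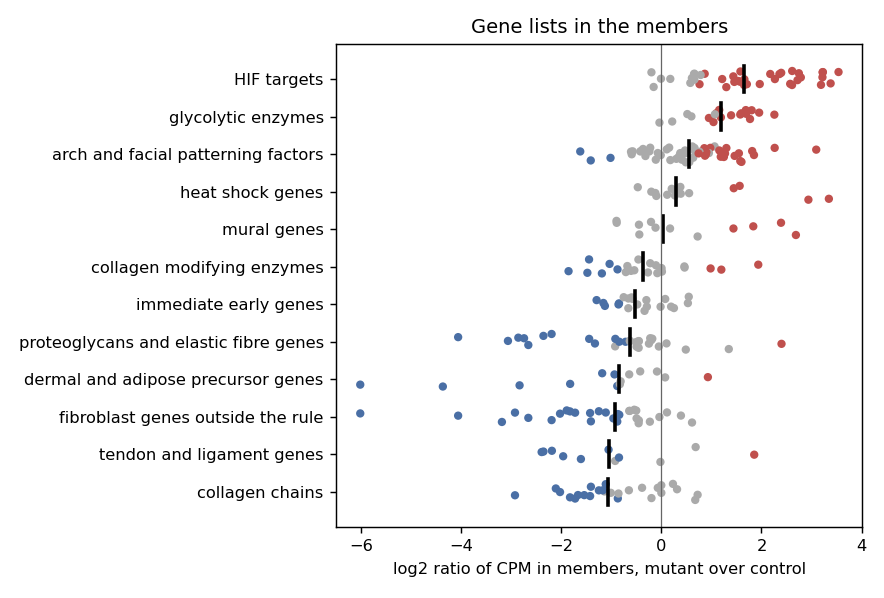
Log2 ratio of CPM in members, mutant over control, for each gene of 12 lists with at least 20 UMIs, where red and blue points have counting intervals beyond 1.5-fold up or down, grey points do not, and black bars are list medians. The HIF list has its median at 1.65 and the collagen chains at -1.06, and 1 gene can stand on several lists.

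Patterning factors of the arches and face were more often higher than lower, with 19 of 53 higher and 3 lower. These were 35.8% and 5.66%, against 3.66% and 5.17% of all genes, so the lower share was near that of all genes. The median log2 ratio was 0.56, against 0.32 in the other filtered cells. Against female-like control, female-like mutant members had 19 of 52 higher and 5 lower (median 0.64). Male-like mutant members had 12 of 53 higher and 4 lower (0.39). All genes gave 330 higher and 514 lower of 13654, and 482 and 754 of 14122. Male-like over female-like mutant members gave 2 of 50 higher and 8 lower, against 150 and 127 of 12256. By subcluster the list median lay between 0.08 (subcluster 2) and 0.61 (subcluster 6). Alx1, a factor of the frontonasal region, was at 19.7 and 69.3 CPM (1.81, 1.55 to 2.09). Msx1, a target of BMP signals, was at 41.0 and 93.4 CPM, and Six2 at 30.3 and 91.9 CPM. Meis2, the most abundant of the list, was at 316 and 530 CPM (0.74, 0.67 to 0.82). The calls of both Msx1 and Meis2 were lost in G1 cells (0.45 and 0.54), after thinning (0.46 and 0.45) and in male-like mutant cells against control (0.60 and 0.65). That of Meis2 was also lost with 2 markers (0.59), with no gene of another cell type (0.61) and without subclusters 2, 3 and 6 (0.58). The 3 lower factors were Osr2 (54.4 and 20.4 CPM), Tbx15 (91.8 and 45.4 CPM) and Tbx22 (5.11 and 1.66 CPM). None of these 3 was called without subclusters 2, 3 and 6, Osr2 and Tbx15 were not called after thinning, and Tbx22 was at -0.23 between female-like cells.

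Of 12 mural genes, 4 were higher (33.3%, against 3.66% of all genes) and none lower, with a median log2 ratio of 0.03. The 4 were Tagln, Acta2, Cnn1 and Rgs5, of which the first 3 are contractile genes of smooth muscle. Tagln, an actin-binding protein, was at 94.3 and 494 CPM in members (2.39, 2.28 to 2.51), against 79.5 and 137 CPM in the other filtered cells. Acta2, smooth muscle actin, was at 163 and 584 CPM (1.84, 1.75 to 1.93). These UMIs stood mostly in subcluster 2, where Acta2 was at 587 CPM in control and 1672 CPM in mutant cells, against 28.4 and 47.1 CPM in subcluster 1. Without subclusters 2, 3 and 6 Tagln (1.14) was called, and Acta2 (-0.17), Cnn1 (0.58) and Rgs5 (-0.48) were not, and Rgs5 was also not called in members with no gene of another cell type (0.32). Myh11, a marker of mature smooth muscle, was at 25.1 and 13.46 CPM, with 83 of its 201 control UMIs in 1 cell.

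Leaving out Xist, Tsix and Y-linked genes, Bnip3, Slc2a3, Hspa1a and Hspa1b had the 4 highest ratios among genes reaching 100 CPM in 1 library. The inducible HSP70 genes Hspa1a and Hspa1b were at 32.5 and 249 CPM and at 21.6 and 220 CPM. Their sequences are nearly identical, so the split between them is uncertain. In the other filtered cells they were at 39.6 and 384 CPM and at 26.8 and 343 CPM. Of 15 heat shock genes 4 were higher (26.7%, against 3.66% of all genes), these and the chaperones Hsph1 and Hspb1. Immediate early genes were lower in 5 of 20 (25%, against 5.17% of all genes), with a median of -0.53. Fosb was at 410 and 188 CPM and Nr4a1 at 188 and 76.5 CPM. Both groups are known to respond to tissue dissociation, and the part of handling in these values was not tested.

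Growth factor lists are set beside the shares called over all genes, 3.66% higher and 5.17% lower. The TGF beta list had 7 of 20 higher and 3 lower. Tgfb2, a ligand, was at 95.1 and 183 CPM (0.94, 0.81 to 1.08). Without subclusters 2, 3 and 6 Tgfb2 was not called (0.54, 0.34 to 0.74). Ccn2, a target gene, was at 40.3 and 90.7 CPM, although its log2 ratio was -0.11 between female-like cells. The co-receptor Tgfbr3 was lower, at 146 and 59.3 CPM (-1.30, -1.47 to -1.13). Of 16 FGF genes 4 were lower, among them the ligands Fgf7, at 30.5 and 12.1 CPM, and Fgf10, at 31.0 and 14.8 CPM, neither of which was called between female-like cells (-0.52 and -0.51). Of 33 WNT genes 4 were higher and 5 lower, with Rspo3, an agonist, at 116 and 60.7 CPM (-0.68 and not called between female-like cells). Of 25 secreted factors that act on vessels, Edn1 was higher (3 and 39 UMIs) and 4 were lower, among them Kitl (74.9 and 23.8 CPM) and Sema3c (106 and 33.4 CPM).

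The embryos' sexes differed between the libraries, which sets a limit and allows a comparison within the mutant library. By Xist and 4 Y-linked genes, 404 control members were female-like, 0 were male-like and 7 were unassigned. In the mutant, 93 were female-like, 210 male-like and 33 unassigned. Sex and embryo cannot be told apart here.

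HIF targets were lower in female-like than in male-like mutant members, while the collagen list had a median log2 ratio of -0.13 between them. Against female-like control members, the HIF list had a median log2 ratio of 0.82 in female-like and 1.84 in male-like mutant members, with 15 and 30 of 39 genes higher, against 330 of 13654 and 482 of 14122 genes measured in these comparisons. Male-like over female-like mutant members gave a median of 1.00, with 20 of 39 genes higher and none lower, against 150 higher and 127 lower of 12256 genes measured there. Slc2a3 was at 10.98 CPM in female-like control, 18.3 CPM in female-like mutant and 134 CPM in male-like mutant members, and was not called between female-like cells (0.73, 0.07 to 1.36), nor was Stc2. Bnip3 was at 35.2, 139 and 421 CPM, and Pgk1 at 188, 502 and 828 CPM. All 3 genes followed the same order. The other filtered cells had HIF medians of 0.92 in female-like and 1.48 in male-like mutant cells.

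Matrix genes differed among themselves in this comparison. Dcn was at 955 CPM in female-like control, 148 CPM in female-like mutant and 160 CPM in male-like mutant members. Col1a1 was at 2698, 909 and 795 CPM and Postn at 856, 329 and 213 CPM. The log2 ratio of male-like over female-like mutant members was 0.11 (-0.11 to 0.33) for Dcn, -0.19 (-0.28 to -0.10) for Col1a1 and -0.62 (-0.78 to -0.46) for Postn, with 1 of 24 collagen chains higher and 1 lower. Hspa1b was at 21.8, 265 and 196 CPM, and Tagln at 94.7, 556 and 495 CPM. Against female-like control, the medians in female-like and male-like mutant members were -0.82 and -1.15 for collagen chains, -0.74 and -1.06 for fibroblast genes, and -0.42 and -0.59 for proteoglycan and elastic fibre genes. These 3 matrix medians were thus nearer 0 in the female-like cells, and the difference between the sets of embryos was not tested over replicates.

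**Figure D4:**
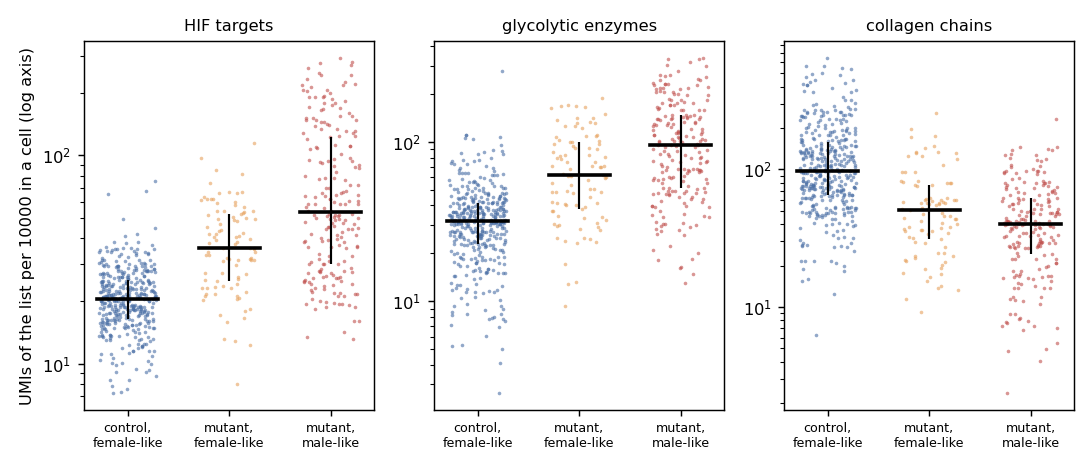
UMIs of 3 gene lists per 10000 UMIs in each member (log axis, 1 point a cell), for female-like control, female-like mutant and male-like mutant cells, where horizontal bars are medians and vertical bars run between quartiles. The HIF medians are 20.5, 36.1 and 53.3, and the collagen medians are 97.4, 50.5 and 40.2.

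Cell by cell, the distributions overlapped. The HIF targets took a median of 20.4 UMIs per 10000 (quartiles 16.3 and 25.2) in control members and 47.8 (28.7 and 81.4) in mutant members. Of mutant members, 91.7% lay above the control median and 66.4% above the control 95th percentile. Among male-like mutant members the quartiles were 30.1 and 122, a wider range than the 25.1 and 52.3 of female-like mutant members. The collagen chains took a median of 97.1 UMIs per 10000 in control and 41.6 in mutant members, and 10.7% of mutant members lay above the control median. Cells of 1 library share their embryos and are not replicates.

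The same directions stood in nearly all subclusters. The HIF median lay between 1.49 (subcluster 3) and 2.25 (subcluster 5) in the 6 subclusters, and the glycolysis median between 1.13 and 1.95. Bnip3 was at 38.8 CPM in control and 428 CPM in mutant cells of subcluster 1, and at 33.1 and 272 CPM in subcluster 3. The collagen median lay between -1.19 and -0.86 in subclusters 1 to 5, and the fibroblast median between -1.42 and -0.89. The exception was the mesothelium-like subcluster 6, with 23 control and 8 mutant cells, where both medians were 0.25. There Col1a1 was at 2271 and 2594 CPM and Dcn at 654 and 745 CPM. Dcn was highest in subcluster 4 of the control, at 1615 CPM, and was at 143 CPM in its 21 mutant cells.

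**Figure D5:**
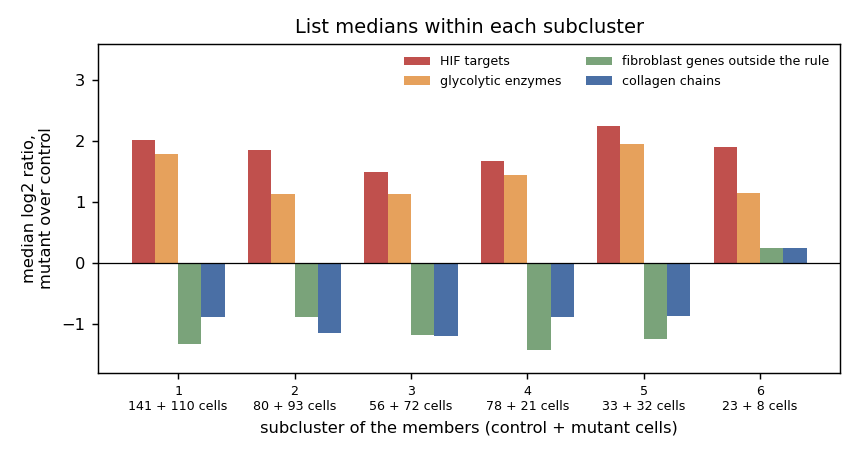
Median log2 ratio (mutant over control) of 4 gene lists within each of the 6 subclusters of members, with the number of control and mutant cells under each. HIF and glycolysis bars are positive in all 6, and collagen and fibroblast bars are negative in subclusters 1 to 5 and at 0.25 in subcluster 6.

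The closest other mesenchyme in these libraries, chosen by the same genes, showed the same signs with other sizes. Lung and foregut mesenchyme (476 control and 85 mutant cells) had medians of 0.96 for HIF targets and -0.41 for collagen chains. Cartilage-forming mesenchyme (70 and 107 cells) had 1.08 and -1.48. Fibroblast-like members had 1.65 and -1.06. The difference between these groups was not tested.

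Phase scores on cells thinned to 5000 UMIs placed 64.2% (59.3 to 68.9) of control and 53.6% (48.0 to 59.2) of mutant members in G1, and at full depth 64.5% and 55.1%. In the other filtered cells the thinned shares were 41.2% and 45.8%. Of 23 cell cycle regulators 1 was called higher (4.35%, against 3.66% of all genes). It was Top2a, a topoisomerase of dividing cells, at 177 CPM in control and 301 CPM in mutant members (0.77, 0.67 to 0.87) and with a log2 ratio of -0.029 between G1 cells, while Mki67 was at 138 and 188 CPM. Free RNA also enters phase scores, and its part was not tested.

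Markers of other cell types moved as well. Macrophage markers summed to 46.8 CPM in control and 4.32 CPM in mutant members, with 4 of 5 measured genes lower. Lyz2, the most abundant, had 195 and 3 UMIs, but 1 control cell held 189 of the 195, and 1 control cell each held 30 of the 41 UMIs of Tyrobp and 22 of the 36 of Fcer1g, so that the sum mostly describes very few cells. In all, 4 of the 11 markers, among them Tyrobp and Ptprc, had 0 UMIs in mutant members. Liver markers summed to 2.49 and 35.6 CPM. Afp, their most abundant gene, had 0 UMIs in control and 79 UMIs in mutant members and was at 696 CPM in the other filtered cells of the mutant. After thinning, Afp was detected in 6.58% of mutant members and 9.04% of mutant endothelial cells, which should lack it. The part of free RNA in these UMIs was not tested. Neuron markers summed to 208 and 336 CPM, with Nefm the most abundant (381 of its 650 mutant UMIs in 1 cell), skeletal muscle markers to 338 and 240 CPM, with Actc1 the most abundant (554 of its 1664 control UMIs in 1 cell), and mesothelial markers to 147 and 97.1 CPM, with Upk3b the most abundant. Endothelial markers summed to 134 and 152 CPM, with Ramp2 the most abundant. Their part in the results was not tested.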

How the data were processed

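Sorted eYFP+ cells of 3 pooled embryos per genotype were profiled with a 10x Genomics 5′ kit. The authors aligned reads with Cell Ranger 7.1.0 to mm10, per the submitters' processing notes, and deposited raw UMI counts of 32285 genes for 4505 control and 5357 mutant cells. The annotation release and the counting of intronic reads are not given in the sources used here. The libraries shared 28 cell barcodes, and members shared 1. Doublets were kept, because Scrublet (scanpy 1.11.5) called 0 control and 1 mutant cell, and removing the highest scores was an alternative.

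The members and all gene lists were chosen with earlier results of these data known. UMIs were summed over members of each library and given as CPM. Log2 ratios have conditional exact binomial intervals, CPM exact Poisson intervals and shares exact Clopper-Pearson intervals, all at 95% and for counting error only. A gene was called when its interval lay beyond 1.5-fold with at least 20 UMIs. A gene at 0 was set to 3 UMIs. The genes named were the 12 largest rises and 12 largest falls with at least 100 CPM in 1 library, the 15 genes highest over other cells, the rule's genes, Pik3ca and Isl1, the 5 leading genes of each subcluster, and of each list the 3 most abundant and the largest rise and fall. Xist, Tsix and Y-linked genes were left out of the rises, the falls and their ranking. Other list members are named as examples after their values were seen.

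Endothelial cells had at least 1 UMI of both Cdh5 and Pecam1 and were not members, lung and foregut mesenchyme or cartilage-forming mesenchyme. Cells with Xist and no Y-linked UMI (Ddx3y, Uty, Kdm5d, Eif2s3y) were called female-like, and the opposite male-like. Subclusters were made with leidenalg 0.10.2 at resolution 0.5 (2000 variable genes scaled per library, 30 components, 20 neighbours), leaving out HIF, glycolysis, collagen enzyme, stress and cell cycle genes. Leading genes had at least 50 CPM and were detected in at least 20% of the subcluster. A list gene was raised there when it was detected in at least 20% of its cells and 1.5 times the share elsewhere. Phases used 43 S and 54 G2/M genes. The intervals were tested on simulated data, with an outcome that is not reported here. TMM factors came from edgeR 4.0.16. Statistics ran in scipy 1.17.1 under Python 3.11.15, with pandas 2.3.3, numpy 2.4.6 and, for plots, matplotlib 3.10.9. Alternatives changed the marker number, filters, doublets, depth, scaling, sex, phase and UMI minimum. A further 3, without certain subclusters or cells rich in neuron markers, were chosen after seeing the data. Certain genes of the lists are not reported here by name.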

Additional observations from a re-analysis of the deposited data

How the results depend on the processing

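With 1 library per genotype, no difference between genotypes could be set against the spread between embryos. Of 20 settings, those that changed the rule moved the share of members: with 2 markers it was 17.2% in control and 13.8% in mutant, with 4 markers 13.2% and 6.62%, and with no gene of another cell type 10.3% and 6.28%. After thinning before the rule, the mutant share was 7.27%, 224 genes were higher and 344 lower, and the glycolysis median was 1.69. In female-like cells 330 genes were higher and the HIF and glycolysis medians were both lower, at 0.82 and 0.81. With a minimum of 100 UMIs 340 genes were higher. The glycolysis median was 1.67 in G1 cells, 1.49 with no gene of another cell type and 1.54 without subcluster 6.

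Without subclusters 2, 3 and 6, chosen after seeing the data, the shares were 9.05% and 4.67%, and the medians were 1.98 for HIF targets, 1.69 for glycolytic enzymes and -0.72 for collagen modifying enzymes. There Acta2 (-0.17), Rgs5 (-0.48) and Hapln1 (-1.65) changed sign, as did Ccn2 in female-like cells (-0.11) and Top2a in G1 cells (-0.029). Pik3ca, not called, was -0.23 after thinning. Of the called genes named with a value, 17 of 86 measured were not called between female-like cells, 11 of 83 after thinning and 11 of 85 without subclusters 2, 3 and 6. The causes were not tested. Of 384 values of the 24 genes with the highest and lowest ratios under the alternatives, 101 lay outside the main counting interval. Slc2a3 ranged from 0.73 (female-like cells) to 3.62, Bnip3 from 1.98 to 3.63 and Dcn from -3.26 to -2.58. TMM and median-ratio scaling moved all ratios by 0.01 on the log2 scale. Averaging over cells gave no gene counts. Depth limited genes under 20 UMIs, which were not compared. No paired analysis was possible because the genotypes share only replicate number 1.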

Other observations

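Other pathways are given beside the shares called over all genes, 3.66% higher and 5.17% lower. Of 28 PI3K and FOXO genes 1 was higher and none lower (median log2 ratio 0.09): Ccng2, a FOXO target, at 34.7 CPM in control and 80.6 CPM in mutant members. Of 11 hedgehog genes 1 was lower, the co-receptor Cdon (163 and 93.6 CPM). Of 21 BMP genes 2 were lower, the antagonists Chrd and Fst (11.7 and 2.33 CPM, and 50.9 and 23.8 CPM), which were not called between female-like cells, nor was Cdon. Of 15 retinoic acid genes 3 were higher (a share of 20%): Cyp26a1 and Cyp26b1, which degrade retinoic acid, and the retinol receptor Stra6. Of the 54 mutant UMIs of Cyp26a1, 27 lay in 1 cell. Cyp26b1 was at 6.36 and 33.2 CPM. Of 26 genes of endoplasmic reticulum stress and ATF4, 2 were higher, Trib3 and Chac1. Of 22 Hox genes Hoxb9 was called higher (1 and 33 UMIs), but 1 mutant cell held 29 of the 33, and with 2 markers it was not called. Hoxd8 was lower (138 and 23 UMIs).

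Cartilage genes went both ways although the rule limited Col2a1: of 10 measured, 5 were higher and 2 lower. The median log2 ratio was 0.51 in members and 0.57 in lung and foregut mesenchyme. It was -1.34 in the other filtered cells and -3.25 in cartilage-forming mesenchyme, and the difference between groups was not tested. Col9a1, a chain of collagen IX, was at 11.0 and 53.5 CPM, while Cnmd, which encodes chondromodulin, was at 14.5 and 0.665 CPM. Pdgfc, a ligand of Pdgfra, was at 34.3 and 87.1 CPM. Of 7 bone forming genes measured, Runx2 and Spp1 were called higher and Phex lower, and 1 cell held 23 of the 40 mutant UMIs of Spp1. Among markers of other cells not yet given, erythroid markers summed to 19.8 CPM in control and 49.9 CPM in mutant members, epithelial markers to 66.7 and 114.7 CPM, cardiomyocyte markers to 133 and 138 CPM, and Schwann and neural crest markers to 35.03 and 17.5 CPM. Their part in the results was not tested.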
